A study of Rattus norvegicus with 6 samples.

Results

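The 32 genes described here encode parts of the lysosome, the acid compartment in which cells break down proteins, sugar chains and lipids taken up from outside or delivered by autophagy. They were taken by symbol from a table of 32662 rat genes, in which each symbol matched 1 row. They cover 6 cysteine cathepsins (Ctsb, Ctsc, Ctsf, Ctsh, Ctsl and Ctsz), 3 other proteases (Ctsa, Ctsd and Tpp1), 7 glycosidases (Hexa, Gla, Gaa, Naglu, Neu1, Glb1 and Gusb), 3 lipid and sulfate hydrolases (Arsa, Asah1 and Lipa), the cofactor genes Psap and Grn, the cholesterol transfer genes Npc1 and Npc2, 4 membrane proteins (Lamp1, Lamp2, Scarb2 and Mcoln1), 4 genes of the proton pump (Atp6v0d1, Atp6v1h, Atp6v0e1 and Atp6ap1) and the transcription factor Tfeb.

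Their mRNA was measured in primary oligodendrocyte precursor cells from the cerebral cortex of Sprague-Dawley rats, in 3 control libraries and 3 libraries from cells that had met preformed fibrils of human alpha-synuclein for 72 hours. Cells of both groups came from mixed glia of pups 1 to 2 days old, first grown with 20% fetal bovine serum, then kept as non-adherent cells for 4 to 5 days with PDGF and FGF at 10 ng/ml each and 2% B27 supplement, per the labels' protocols. Whether libraries of 1 group stem from different cultures or animals is not stated, so the p-values below take in no more than library-to-library spread, which may be technical.

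Lysosomal enzymes are made in the endoplasmic reticulum, mostly tagged with mannose 6-phosphate and carried to the lysosome, where the vacuolar proton pump (V-ATPase) keeps the pH low enough for them to work. The transcription factor TFEB binds short E-box elements in the promoters of many of these genes, and it is held in the cytosol by phosphorylation through the kinase complex mTORC1 when nutrients and growth factors are plentiful, so its mRNA level is not a measure of its activity. In the brain, alpha-synuclein is degraded in part by lysosomal proteases, among which cathepsin D is the best studied.

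The promoters of these genes were searched for the E-box that TFEB binds. RefSeq windows from 250 bases before to 50 bases after the annotated gene start (build GRCr8) were matched to 26 of the 32 genes. The E-box CACGTG, which reads the same on both strands, was present in 8 of these 26 windows (30.8%), against 19.1% of 68 windows of other lysosomal, V-ATPase and regulator genes, 9.54% of 8838 windows of genes tested here and 6.42% of all 33469 windows. The longer palindrome TCACGTGA, which contains that E-box, was present in 5 of 26 (19.2%), against 8.82%, 1.80% and 0.777%. Most windows of the set held neither. These are counts of letters in 1 window per gene, and no binding was measured. The 3 sequences below are shown because they hold TCACGTGA before the gene start (capitals mark each CACGTG). Each is the 250 bases before that start, read 5′ to 3′ on the gene's strand.
Lamp1 (chr16:83075064-83075313, minus strand): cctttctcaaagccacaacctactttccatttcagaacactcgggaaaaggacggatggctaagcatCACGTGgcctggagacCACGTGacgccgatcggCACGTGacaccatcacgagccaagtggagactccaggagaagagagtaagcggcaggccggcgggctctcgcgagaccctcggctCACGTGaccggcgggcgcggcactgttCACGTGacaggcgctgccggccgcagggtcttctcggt
Ctsd (chr1:206968822-206969071, minus strand): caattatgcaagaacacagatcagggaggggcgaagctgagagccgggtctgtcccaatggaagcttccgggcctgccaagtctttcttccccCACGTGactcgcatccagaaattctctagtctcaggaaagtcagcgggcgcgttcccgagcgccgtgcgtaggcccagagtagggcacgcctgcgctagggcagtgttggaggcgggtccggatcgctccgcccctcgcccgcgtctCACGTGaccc
Atp6v0d1 (chr19:50357249-50357498, minus strand): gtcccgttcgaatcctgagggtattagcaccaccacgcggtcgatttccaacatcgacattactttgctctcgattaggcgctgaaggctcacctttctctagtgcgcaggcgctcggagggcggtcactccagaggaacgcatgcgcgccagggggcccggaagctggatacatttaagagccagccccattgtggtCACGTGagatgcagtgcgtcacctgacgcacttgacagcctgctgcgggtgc

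Lamp1, which encodes an abundant glycoprotein of the lysosomal membrane, had 5 E-boxes in its window, beginning 183, 167, 150, 65 and 38 bases before the start, and the last 2 lay within TCACGTGA. Ctsd, the gene of the aspartic protease cathepsin D, had 2, at 157 and 10 bases before the start, the nearer within the longer palindrome. Atp6v0d1, a subunit of the membrane sector of the proton pump, had 1, at 52 bases, also within the longer palindrome. In the other 5 genes the E-box is shown with 12 bases on each side. Mcoln1, which encodes a lysosomal calcium channel, had 2, of which the second lies after the start, as does the 1 of Atp6v0e1.
Mcoln1 (chr12:6358224-6358253, plus strand): cgtcaagcttgtCACGTGttcgacccaggc
Mcoln1 (chr12:6358250-6358279, plus strand): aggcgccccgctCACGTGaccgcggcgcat
Atp6v0e1 (chr10:17007115-17007144, minus strand): tcgcgcgccggtCACGTGagcctctgttga
Gaa (chr10:105028276-105028305, plus strand): ccgcccacaaacCACGTGacccacgctgcc
Glb1 (chr8:122963606-122963635, plus strand): cggctccggagtCACGTGgcctgcagaggc
Ctsf (chr1:211582008-211582037, plus strand): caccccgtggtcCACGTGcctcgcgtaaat

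The windows of Tfeb, Ctsa, Scarb2 and Ctsz, 4 genes named below, held no CACGTG, which says only that these letters are not in those windows. Among the 25 matched genes that could be tested, the 8 with an E-box had a median difference of 0.43 on the log2 scale, and 7 were above 0. The 17 without one had a median of 0.25, and 12 were above 0. The ranges overlapped (-0.0046 to 0.85 and -0.82 to 1.70). Without fibril replicate 3, Ctsd (-0.12), Ctsf (-0.37), Gaa (-0.40) and Mcoln1 (-0.26) were below 0. Lamp1 (0.23), Atp6v0d1 (0.14), Atp6v0e1 (0.81) and Glb1 (0.016) stayed above it. The middle values of the 8 were then -0.12 (Ctsd) and 0.016 (Glb1). Those of the genes without an E-box, Ctsz left out because it did not pass the filter, were -0.024 (Lamp2) and 0.094 (Grn). The higher median of the genes with an E-box thus did not hold without that library.

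**Figure D1:**
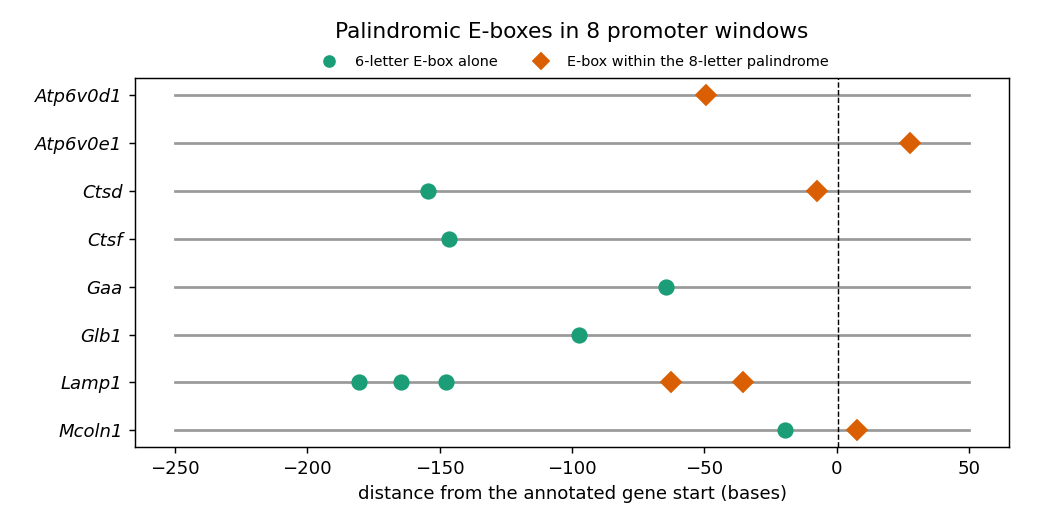
Positions of the 6-letter E-box (green circles) and of E-boxes within the 8-letter palindrome (orange diamonds) in the promoter windows of the 8 lysosomal genes that hold one; the x axis is the distance in bases from the annotated start (dashed line) and grey lines are the windows. Lamp1 has 5, Ctsd and Mcoln1 have 2, and the other genes have 1.

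The libraries differed in ways the groups do not explain, and markers of several cell types also differed between the groups. Values are FPKM (fragments per kilobase of transcript, relative to the mapped fragments of a library), which are per length and so allow levels to be compared between genes, but the number of fragments is unknown. From 11518 to 14219 genes were above 0 per library. By the spacing of low values, the FPKM worth of 1 fragment, relative to control replicate 2, was 4.03 in control replicate 1, 6.87 in fibril replicate 1 and between 0.824 and 1.95 elsewhere, so low genes were measured most coarsely in both replicate 1 libraries. Of the FPKM total, mitochondrially encoded genes took up 80.3% and 75.6% in these replicate 1 libraries and 12% to 40.1% in the rest. The precursor genes Pdgfra, Olig2 and Sox10 were present in all 6 libraries, the lowest of these being Pdgfra at 43.4 FPKM in fibril replicate 1. Another precursor gene, Cspg4, was lower, with 4.59, 31.5 and 98.8 FPKM in control replicates 1, 2 and 3. It had 3.22, 23.6 and 25.3 FPKM in the fibril libraries. The 8 tested markers of differentiating oligodendrocytes all had log2 differences above 0 (median 2.89). Of these, 3 passed by limma with the replicate number as a block and 0 without it. Of the 7 precursor markers 6 were below 0, with a median of -0.65 (Pdgfra -1.02). Of 10 astrocyte markers 9 could be tested, with a median of -1.40. In 4 (Gja1, Slc1a3, Slc4a4 and Sparcl1) all fibril libraries lay below the controls, against 5.30% of all genes tested. In 1 (Gfap) they all lay above, against 4.24%. The summed level of the 10 astrocyte markers was 193 to 246 FPKM in the controls and 98.7 to 254 FPKM with fibrils. Aldoc alone gave 181 FPKM of the highest sum, in fibril replicate 3. The 7 neuron markers were all below 0, with a median of -0.62 and a summed level of 273 to 601 FPKM against 111 to 398 FPKM. In 3 of them (Dcx, Snap25 and Stmn2) all fibril libraries lay below the controls. In 7 of the differentiating oligodendrocyte markers all fibril libraries lay above the controls. By limma 0 of these precursor, astrocyte and neuron markers passed with or without the block, and their part in the results below was not tested. In bulk RNA, fewer cells of a type and less RNA per cell cannot be told apart.

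All but 2 of the 32 lysosomal genes were above 0 in every library. The exceptions were Ctsz, listed at 0 in replicate 1 of both groups, and Ctsc, listed at 0 in fibril replicate 1. An exact 0 can be a failed estimate, since Hprt1 and Rps6, genes that every cell uses, were listed at 0 in all 6 libraries. By mean FPKM over the 6 libraries, 3 genes exceeded 100 (Lamp1 at 146.7, Atp6v0d1 at 145.6 and Psap at 128.3), and 13 were below 10. The ranges of these 3 over the libraries overlapped. Lamp1 had 91.2, 119 and 128 FPKM in control replicates 1, 2 and 3. Psap, the precursor of the saposins that help hydrolases reach their lipid substrates, ran from 46.5 to 192 FPKM in the same libraries. The next was Ctsb, the gene of the cysteine protease cathepsin B, with 72.2, 98.2 and 95.1 FPKM in controls. Ctsc, which activates serine proteases of immune cells, was the lowest at 0.434 FPKM.

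**Figure D2:**
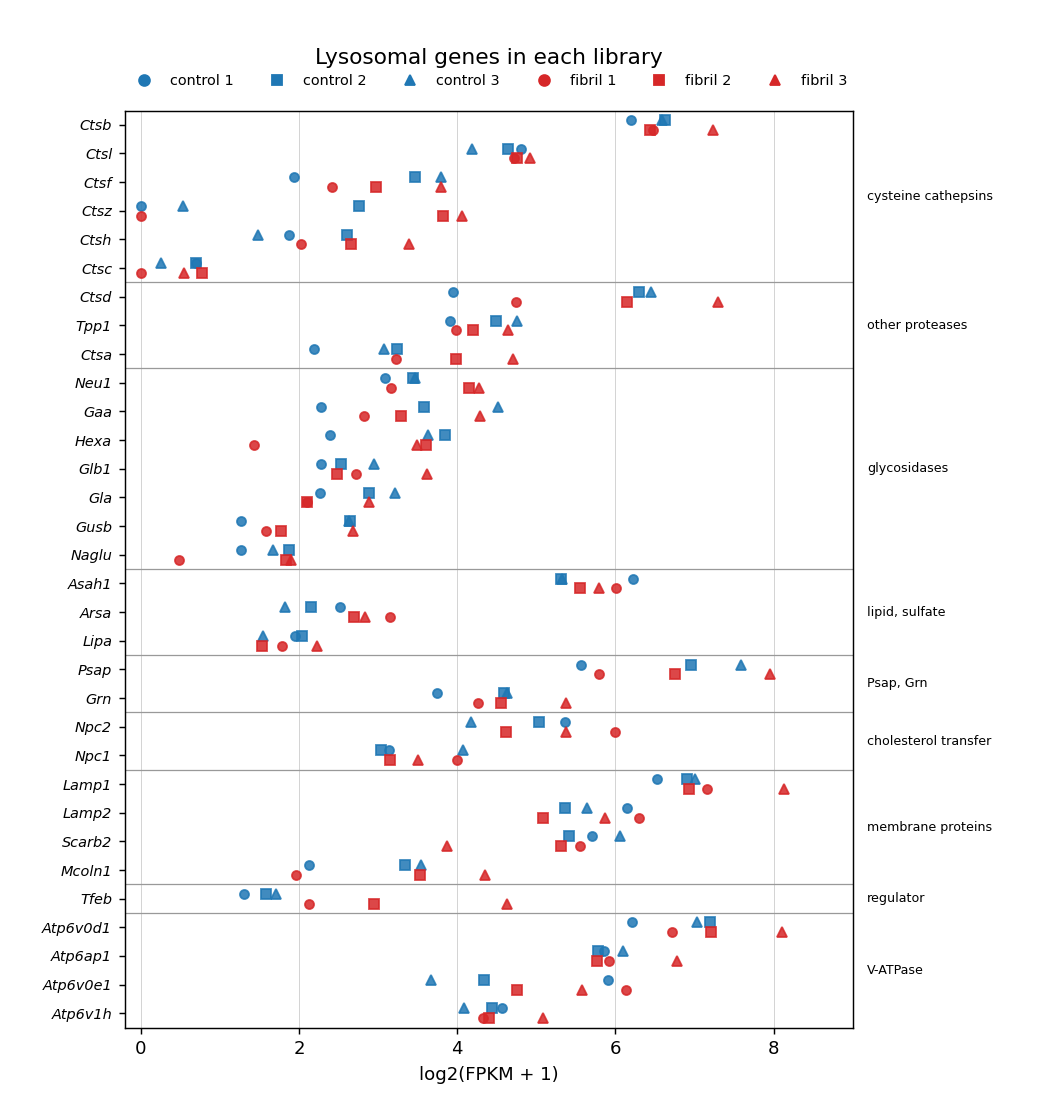
log2(FPKM + 1) of each of the 32 genes (rows, grouped by role) in every library (control in blue, fibril in red; circle, square and triangle for replicates 1, 2 and 3). The highest genes, Lamp1, Atp6v0d1 and Psap, lie far above Ctsc, the lowest, and fibril replicate 3 is the highest library in 19 genes.

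The question of the comparison was which of these transcripts differed in cells that had met the fibrils. Differences were taken on log2(FPKM + 1), which understates the change of low genes. Of the 32 genes, 31 could be tested (1 FPKM or more in at least 3 libraries); Ctsc could not. By limma without a block, 0 of the 31 passed an adjusted p of 0.05 in either direction, where 0 of all 10766 genes tested did (0%). The smallest adjusted p among them was 0.96. At an unadjusted p under 0.05 there were 2 of 31 (Tfeb and Ctsa), against 4.02% of all genes. With the replicate number as a block, 0 of the 31 passed, against 12 genes higher (0.111%) and 0 lower over the whole table. The smallest adjusted p with the block was 0.349 for Tfeb (limma), and 3 of 31 had an unadjusted p under 0.05 (Tfeb, Ctsa and Ctsz), against 9.84% of all genes. With the block and scaling without mitochondrial genes it was again 0 of 31, against 1 gene higher (0.00922%) and 0 lower.

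Described as a set, 24 of the 31 genes were above 0 and 7 below, with a median log2 difference of 0.25, against 47% above 0 and a median of -0.038 over all genes tested. Within replicates 1, 2 and 3 the medians were 0.23, -0.034 and 0.68, against 0.0030, -0.037 and -0.049 over all genes. The set was therefore farthest above 0 in replicate 3 and was not above 0 in replicate 2. Libraries were paired by the numbers in their titles, which the values bore out for replicate 1 only. Without fibril replicate 3 the median was -0.0059, with 15 of 30 genes above 0, against -0.059 and 44.2% for all genes. Scaled to equal totals without mitochondrial genes, the median was -0.053, with 13 of 31 above 0; that scaling moved the median of all genes to -0.30, and relative to it the set's median was 0.25. As a share of the FPKM total without mitochondrial genes, the 32 genes together held 0.179%, 0.302% and 0.382% in the controls and 0.202%, 0.285% and 0.356% with fibrils. These shares overlapped between the groups.

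**Figure D3:**
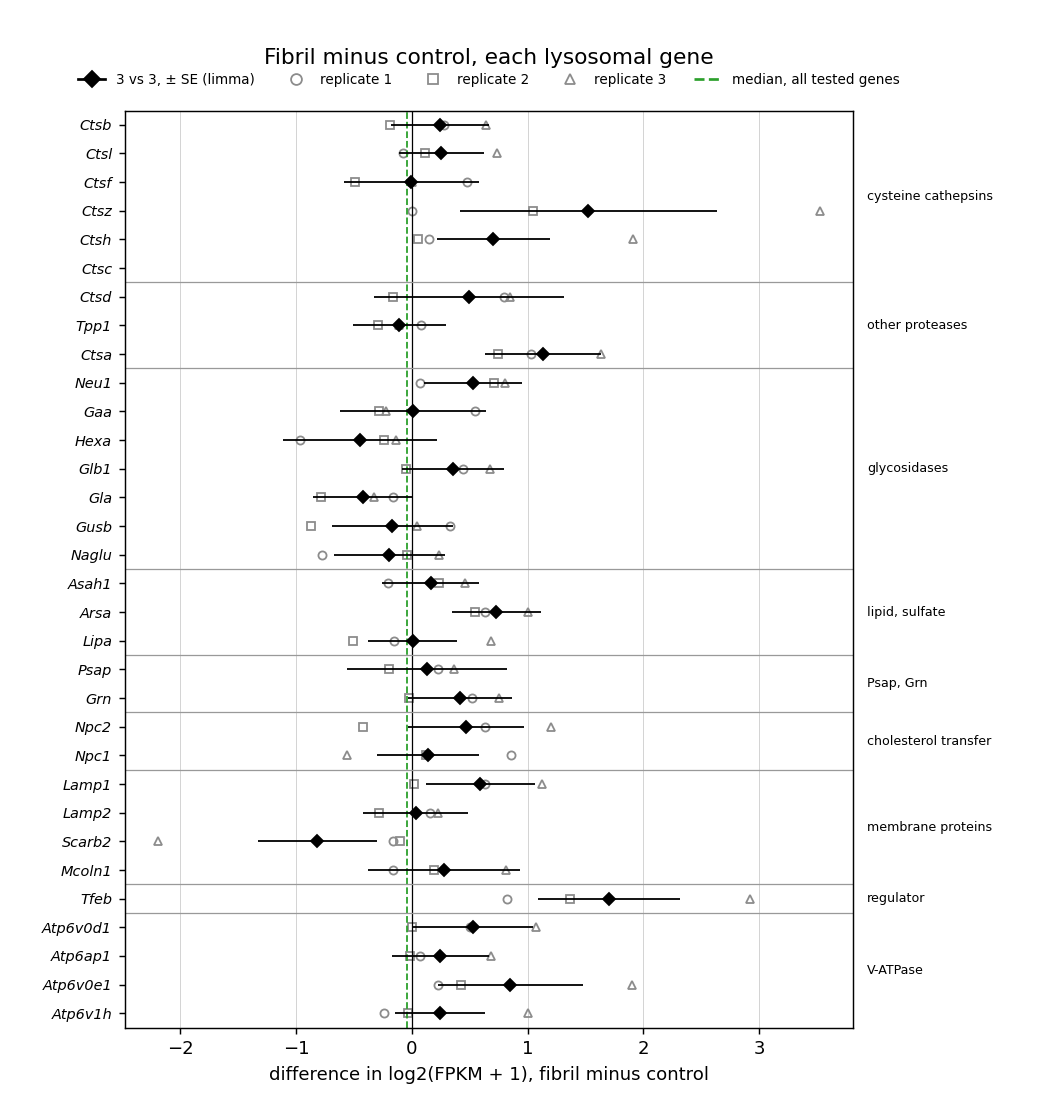
Difference in log2(FPKM + 1), fibril minus control, for each lysosomal gene: black diamonds are 3 against 3 libraries with the standard error from limma, grey open markers give each fibril library minus its same-numbered control, and the green dashed line is the median of all tested genes (-0.038). Tfeb is highest (1.70) and Scarb2 lowest (-0.82), and the triangle of replicate 3 is often the rightmost marker; Ctsc was not tested.

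Tfeb, the regulator of the set (chromosome 9, 15207821 to 15214596 in the deposited table, whose build is not given in the sources used here), had the largest difference. It had 1.47, 2.00 and 2.28 FPKM in control replicates 1, 2 and 3, and 3.38, 6.73 and 23.8 FPKM in fibril replicates 1, 2 and 3. All 3 fibril libraries lay above all 3 controls, which was so for 4.24% of all genes tested. The fibril libraries themselves were spread widely, from 2.30 times their same-numbered control in replicate 1 to 3.36 times in replicate 2 and 10.5 times in replicate 3. The log2 difference was 1.70 (SE 0.61, limma adjusted p = 0.96; 0.349 with the block, and up to 1 over the alternatives in which it was tested, which leave out the filter of 5 FPKM that it did not pass), the 85th highest of 10766. Mean FPKM (± SD, n = 3) was 1.92 ± 0.41 in the controls against 11.3 ± 11 after fibrils. An exact two-sided permutation test on its FPKM gave p = 0.1, the smallest that 3 against 3 libraries allow. Groups that do not overlap always give this value, so it adds nothing to the non-overlap given above. Its difference was 1.01 without fibril replicate 3. Scaled without mitochondrial genes it was 1.46, but the groups then overlapped: fibril replicate 1 had 2.83 and control replicate 3 had 3.13 scaled FPKM.

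The summed level of the differentiating oligodendrocyte markers (all 9 in the table) was, like Tfeb, higher in each fibril library than in each control. It was 786, 322 and 480 FPKM in control replicates 1, 2 and 3, and 2651, 2180 and 3987 FPKM in the fibril libraries. Within the groups the order differed, since replicate 1 had the highest sum and the lowest Tfeb among the controls, and a higher sum but a lower Tfeb than replicate 2 with fibrils. None of the 9 was at 0 in any library. The part of these markers in the difference of Tfeb, or of any other gene here, was not tested. Over the 6 libraries, the lysosomal genes whose log2 levels were most like those of Tfeb were Ctsa, Lamp1 and Neu1, with Pearson correlations of 0.934, 0.903 and 0.872. These correlations describe 6 libraries that share the library differences given above.

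Among the hydrolase genes above their same-numbered control in all 3 replicates, Ctsa and Arsa had the largest differences. Ctsa encodes protective protein/cathepsin A, a carboxypeptidase that holds beta-galactosidase and neuraminidase 1 in a stable complex, and lies on chromosome 3 (161296303 to 161322289 in the deposited table). It had 3.58, 8.49 and 7.45 FPKM in the controls and 8.38, 14.9 and 25.2 FPKM with fibrils. Each fibril library was above its same-numbered control, while fibril replicate 1 lay just under control replicate 2. The log2 difference was 1.14 (SE 0.50, limma adjusted p = 0.96; 0.389 with the block). Neu1, the gene of that neuraminidase, had 7.5, 9.83 and 10.1 FPKM against 7.94, 16.7 and 18.3 FPKM. Glb1, the gene of that beta-galactosidase, had 3.87, 4.76 and 6.71 FPKM against 5.60, 4.57 and 11.3 FPKM. Of these 3 partners, Ctsa and Neu1 were higher with fibrils in all 3 replicate numbers and Glb1 in 2 of 3.

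Arsa encodes arylsulfatase A, which removes sulfate from the myelin lipid sulfatide, and lies on chromosome 7 (130446667 to 130451283 in the deposited table). It had 4.73, 3.44 and 2.56 FPKM in the controls and 7.87, 5.50 and 6.15 FPKM with fibrils. The groups did not overlap, and they also did not overlap when scaled without mitochondrial genes, which was so in this direction for 2.50% of all genes. The log2 difference was 0.73 (SE 0.38, limma adjusted p = 0.96, and 0.5 with the block). An exact two-sided permutation test on FPKM gave p = 0.1, again the smallest possible and fixed by the non-overlap. Mean FPKM (± SD, n = 3) was 3.58 ± 1.10 in the controls against 6.51 ± 1.23 after fibrils, a ratio of 1.82. Tfeb and Arsa were the 2 of 31 genes (6.45%) whose fibril libraries all lay above the controls, against 4.24% of all genes, so the share is near the background. No gene of the set had all fibril libraries below the controls, against 5.30% of all genes.

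**Figure D4:**
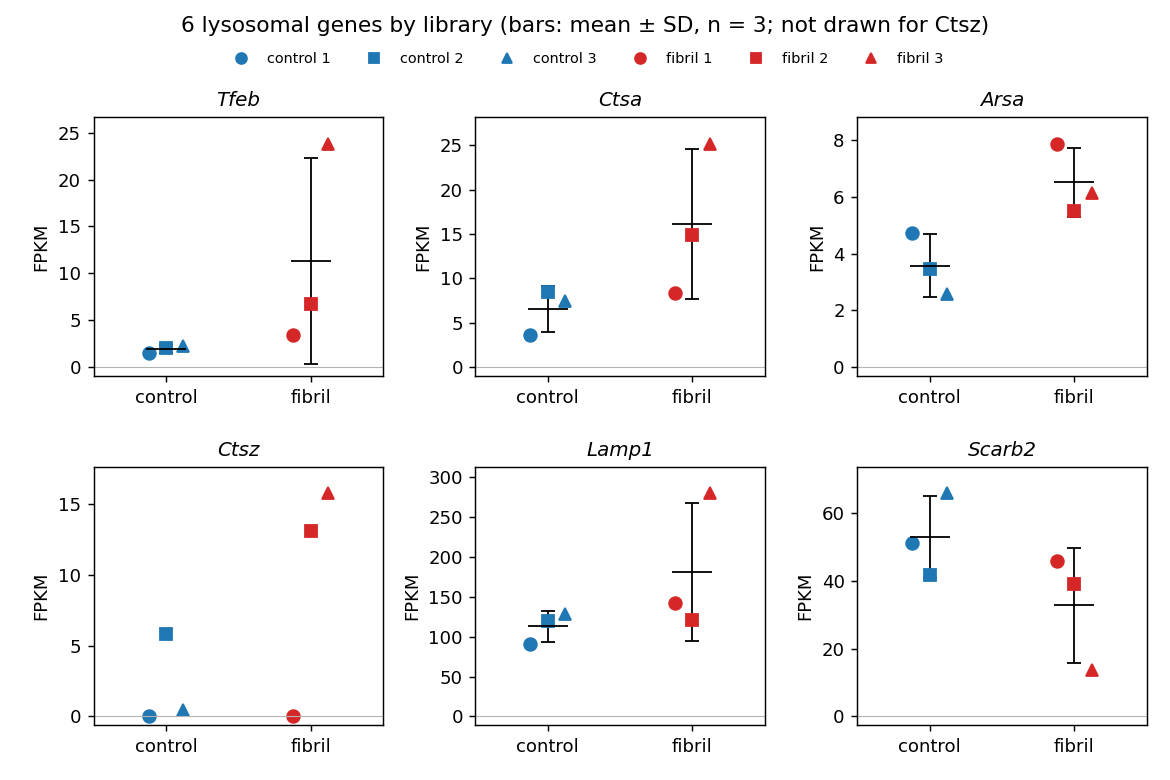
FPKM of 6 lysosomal genes in each library (control in blue, fibril in red; the marker shape gives the replicate number), with the mean and SD of 3 libraries as black bars, left out for Ctsz, which is listed at 0 in 2 libraries. The fibril points of Tfeb and Arsa lie above every control point, and fibril replicate 3 is highest for Tfeb, Ctsa, Ctsz and Lamp1 and lowest for Scarb2.

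Scarb2 differed most in the other direction. It encodes LIMP-2, a membrane protein that also carries a hydrolase to the lysosome without a mannose 6-phosphate tag, and lies on chromosome 14 (17064352 to 17115963 in the deposited table). It had 51.2, 41.7 and 65.7 FPKM in the controls and 45.8, 38.9 and 13.6 FPKM with fibrils. The low value was that of fibril replicate 3, at 0.207 times its same-numbered control, while replicates 1 and 2 were at 0.894 and 0.932 times. The log2 difference was -0.82 (SE 0.51, limma adjusted p = 0.96; 0.517 with the block), and -0.30 without fibril replicate 3. Scaled without mitochondrial genes, all fibril libraries lay below the controls (7.06% of all genes), by a margin of 45.1 against 45.8 scaled FPKM between the nearest libraries. Scarb2 was lowest of all 6 libraries in fibril replicate 3, which held for no other gene of the set, and only Scarb2 and Hexa among the 31 were lower in fibril replicate 3 than in fibril replicate 2. No other gene of the set followed its pattern closely: the highest correlation was 0.193, with Npc1.

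The cysteine cathepsins, papain-like proteases of broad specificity, had a median difference of 0.26, with 4 of the 5 tested above 0. Ctsb had 87.7, 85.8 and 149 FPKM with fibrils, against the controls given above, a log2 difference of 0.24 (SE 0.42). Ctsl, the gene of cathepsin L, was the most even gene of the set with fibrils (25.4, 26 and 29.3 FPKM, a coefficient of variation of 7.71%), against 17.2 to 26.9 FPKM in controls. Ctsf ranged from 2.83 to 12.9 FPKM in the controls and from 4.34 to 12.9 FPKM with fibrils, and its difference was -0.0046. Ctsh, an aminopeptidase, had 2.67, 5.11 and 1.79 FPKM in the controls and 3.08, 5.32 and 9.50 FPKM with fibrils, so that only fibril replicate 3 stood above the control range by more than 1 FPKM. Ctsc had 0.625, 0.623 and 0.191 FPKM against 0, 0.71 and 0.458 FPKM.

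Ctsz, the gene of the carboxypeptidase cathepsin Z (chromosome 3, 172527106 to 172537877 in the deposited table), was listed at 0 in control replicate 1, had 5.80 FPKM in control replicate 2 and 0.456 FPKM in control replicate 3. With fibrils it was listed at 0 in replicate 1 and had 13.1 and 15.7 FPKM in replicates 2 and 3. Its log2 difference of 1.52 had the widest standard error of the set (1.11; limma adjusted p = 0.96, and 0.497 with the block). Ctsz is abundant in microglia, and a list of 16 microglia and macrophage markers, of which 15 were in the table, followed it in part. The summed level of those 15 was 2.74, 41.7 and 1.81 FPKM in the controls and 6.49, 51.4 and 34.6 FPKM with fibrils. Of the 15, 10 were listed at 0 in replicate 1 of both groups, where Ctsz was too, among them the complement genes C1qa, C1qb and C1qc and the receptor genes Csf1r and Trem2. These 5 were highest in control replicate 2 and lower in fibril replicates 2 and 3, unlike Ctsz. C1qa had 10.3 FPKM in control replicate 2 against 2.93 and 3.23 FPKM. Of the 15, 7 were highest in control replicate 2 and 5 in fibril replicate 2 (Aif1, Cd14, Ptprc, Spi1 and Tyrobp). Another 2 peaked in fibril replicate 3 (Cd74 and Tmem119) and 1 in fibril replicate 1 (P2ry12). Aif1 had 1.01, 4.40 and 0.222 FPKM in the controls and 0, 9.94 and 7.95 FPKM with fibrils. Cd14 had 0, 0.260 and 0.0708 FPKM against 2.39, 10.6 and 3.23 FPKM. Its groups did not overlap (4.24% of all genes in that direction). Tyrobp, an adaptor of myeloid receptors, had 4.48 FPKM in control replicate 2 and was listed at 0 in the other controls, and it had 1.93, 18.7 and 8.76 FPKM with fibrils. P2ry12 was highest in both replicate 1 libraries (1.44 and 1.66 FPKM), where Ctsz was listed at 0. Of the 15 markers 6 could be tested, 4 were above 0, 0 passed by limma with or without the block, and the median was 0.56. The part of microglia in the values of Ctsz was not tested.

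Among the other proteases, Ctsd had 14.4, 77.8 and 86.7 FPKM in the controls and 25.9, 69.6 and 156 FPKM with fibrils. Both replicate 1 libraries lay below all others, and the difference of 0.50 (SE 0.82) was smaller than its error. Tpp1, a tripeptidase whose loss causes a childhood form of neuronal ceroid lipofuscinosis, had 14 to 26 FPKM in the controls and 14.9 to 24 FPKM with fibrils.

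Of the 7 glycosidases, which trim sugars from glycolipids, glycogen and glycosaminoglycans, 3 were above 0 and 4 below, with a median of -0.17. Hexa, the alpha subunit of beta-hexosaminidase, had 4.27, 13.4 and 11.4 FPKM in the controls and 1.70, 11.2 and 10.3 FPKM with fibrils. Gla, alpha-galactosidase A, had 3.81, 6.40 and 8.28 FPKM against 3.29, 3.30 and 6.39 FPKM. Both were lower than their same-numbered control in 3 of 3 replicates, and in both the groups overlapped (differences -0.45, SE 0.66, and -0.42, SE 0.43). Naglu, which degrades heparan sulfate, had 1.41, 2.67 and 2.18 FPKM against 0.405, 2.58 and 2.74 FPKM. Gaa, the acid glucosidase that degrades glycogen, ran from 3.85 to 21.9 FPKM in the controls and from 6.07 to 18.6 FPKM with fibrils, with replicate 1 lowest in both. Gusb, beta-glucuronidase, had 1.40 to 5.25 FPKM in the controls and 2.01 to 5.43 FPKM with fibrils.

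Besides Arsa, each gene of lipid handling had a difference smaller than its standard error. Asah1, acid ceramidase, had 73.7, 38.8 and 39.2 FPKM against 63.6, 45.8 and 54.3 FPKM. Lipa, lysosomal acid lipase, stayed between 1.89 and 3.71 FPKM in all 6 libraries. Grn, which encodes progranulin, had 12.4, 23.1 and 23.7 FPKM against 18.3, 22.6 and 40.6 FPKM, a difference of 0.42 (SE 0.45). Psap had 54.5, 107 and 247 FPKM with fibrils against its control range above, a difference of 0.13 (SE 0.69). Npc2 and Npc1 hand cholesterol from the lumen to the membrane. Npc2 had 40.3, 31.8 and 17.1 FPKM against 63.0, 23.4 and 40.5 FPKM, and Npc1 had 7.80, 7.20 and 15.8 FPKM against 14.9, 7.90 and 10.4 FPKM. In replicate 3 Npc2 was 2.37 times and Npc1 0.659 times its control, while in replicate 1 both were above it.

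Lamp1 and Lamp2 encode the main glycoproteins of the lysosomal membrane. Lamp1 had 142, 121 and 280 FPKM with fibrils, with replicate 3 well above the controls and replicate 2 within their range; its difference was 0.59 (SE 0.47). Lamp2, needed for fusion of autophagosomes with lysosomes, had 69.7, 40.2 and 48.8 FPKM against 77.8, 32.9 and 57.2 FPKM, a difference of 0.034 (SE 0.45). Mcoln1, a calcium-permeable channel, had 3.38, 9.15 and 10.7 FPKM against 2.91, 10.6 and 19.5 FPKM.

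The 4 V-ATPase genes were all above 0, with a median of 0.39, though Atp6ap1 (-0.060) and Atp6v1h (-0.053) were below 0 when scaled without mitochondrial genes. Their medians within replicates 1, 2 and 3 were 0.15, -0.0044 and 1.04. Atp6v0d1 had 73.0, 146 and 130 FPKM in the controls and 104, 146 and 274 FPKM with fibrils. Atp6v0e1, a small membrane subunit, had 58.8, 19.2 and 11.7 FPKM against 69, 26 and 46.6 FPKM, and was above its same-numbered control in all 3 replicates (difference 0.85, SE 0.62, limma adjusted p = 0.96; 0.5 with the block). Atp6v1h, a regulatory subunit, had 16.0 to 22.8 FPKM in the controls and 19.1 to 33.1 FPKM with fibrils. Atp6ap1, an accessory subunit, had the lowest coefficient of variation among controls (11.8%), with 54.2 to 67.4 FPKM, and 53.7 to 109 FPKM with fibrils. Among 13 tested genes of a list of 17 other V-ATPase subunits, 10 were above 0 (47% of all genes tested were), and 0 passed by limma with or without the block. Their median was 0.39 (0.38, 0.04 and 0.66 within replicates 1, 2 and 3). It was 0.28 without fibril replicate 3. Scaled without mitochondrial genes it was 0.091, where the median of all genes was -0.30.

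Replicate 1 stood apart in most of the set, and mainly in the same way in both groups. Against the mean of replicates 2 and 3, 21 of 31 genes were lower in replicate 1 in both groups (67.7%, against 45.5% of all genes tested), and 5 were higher in both (16.1%, against 33.2%). For Ctsd this log2 difference was -2.43 in controls and -1.97 with fibrils, and for Psap it was -1.70 and -1.56. The 5 higher in replicate 1 of both groups were Atp6v0e1 (1.90 and 0.96), Npc2 (0.76 and 1.01), Lamp2 (0.64 and 0.83), Asah1 (0.90 and 0.34) and Arsa (0.53 and 0.38). Over the 31 genes these values correlated between the groups at 0.747, a description of genes measured in the same libraries. For Ctsd and Psap these shifts were wider than the difference between the groups.

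**Figure D5:**
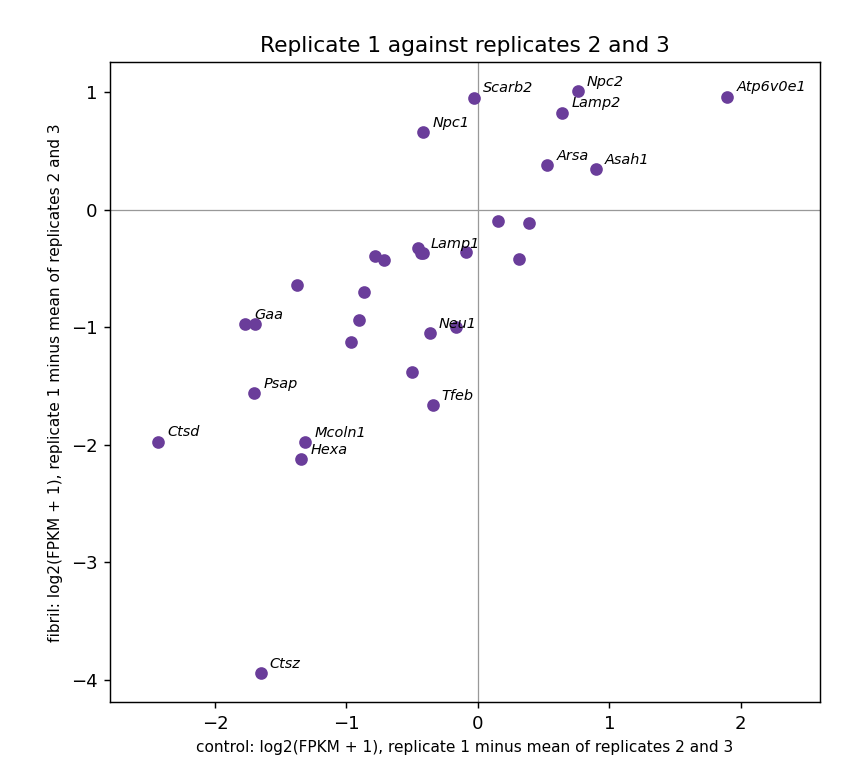
Each of the 31 tested genes by its log2(FPKM + 1) in replicate 1 minus the mean of replicates 2 and 3, in controls (x axis) and with fibrils (y axis). Ctsd, Psap and most others lie in the lower left, and Atp6v0e1, Npc2, Lamp2, Asah1 and Arsa in the upper right.

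Fibril replicate 3 was the other library that stood apart. It was the highest of the 6 libraries in 19 of 31 genes (61.3%, against 28.5% of all genes tested). It exceeded fibril replicate 2 in 29 of 31, by a median of 0.78 on the log2 scale, against 52.5% of all genes and a median of 0.056. Higher in all 3 replicate numbers were 8 of 31 genes (25.8%, against 16.9% of all genes): Tfeb, Ctsa, Arsa, Neu1, Lamp1, Ctsh, Atp6v0d1 and Atp6v0e1. Lower in all 3 were Scarb2, Hexa and Gla (9.68%, against 19.3%). For Atp6v0d1, Lamp1 and Ctsh the difference in replicate 2 was at most 0.05.

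Other lysosomal genes were taken from lists that hold no gene of the set. Of 56 named hydrolases and membrane proteins 52 were in the table and 46 could be tested; 29 were above 0 (47% of all genes tested were), with a median of 0.17 (-0.04 without fibril replicate 3 and -0.092 scaled without mitochondrial genes), and by limma 0 passed in either direction with or without the block. In 3 of the 46 the groups did not overlap, all higher with fibrils, against 4.24% of all genes in that direction, so the share is near the background; for Cln3 they overlapped after that scaling. Lgmn, which encodes the asparaginyl endopeptidase legumain that processes cathepsins, had 15.9, 10.9 and 12.8 FPKM in the controls and 32.5, 18.4 and 50.2 FPKM with fibrils (difference 1.20, SE 0.45). Tpcn2, a lysosomal cation channel, had 5.49, 2.32 and 1.37 FPKM against 7.48, 10.9 and 6.31 FPKM (1.28, SE 0.47). Cln3, a lysosomal membrane protein gene, had 1.76, 2.64 and 2.81 FPKM against 3.04, 2.99 and 5.36 FPKM (0.47, SE 0.39). Among 18 tested regulators of the lysosome 9 were above 0 and the median was 0.0054. Of these only Mitf, a relative of Tfeb, had fibril libraries that all lay above the controls, with 1.49, 2.44 and 2.04 FPKM against 9.58, 4.23 and 3.45 FPKM (1.08, SE 0.44; limma adjusted p = 0.96, and 0.489 with the block); after that scaling its groups overlapped. Tfe3, of the same family, had 3.42, 6.49 and 7.88 FPKM against 3.54, 5.90 and 3.01 FPKM. The largest difference among the 18 regulators was that of Rragd, which was lower with fibrils (-1.33, SE 0.70, limma adjusted p = 0.96, and 0.349 with the block). Rragd had 2.48, 7.69 and 10.5 FPKM against 0, 3.93 and 3.46 FPKM, and its groups overlapped. The highest Mitf value was in fibril replicate 1 and the highest Tfeb value in fibril replicate 3.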

How the data were processed

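The deposited table holds FPKM per gene, 1 column per library, per the file headers. Per the submitters' processing notes the authors used Trimmomatic and FastQC, with no version stated; which aligner, quantifier and genome build made the values is not given in the sources used here. FPKM are not counts, so no count model was run. The analysis used log2(FPKM + 1) of the 10766 genes that reached 1 FPKM in 3 libraries or more. Fits were made with limma 3.58.1 in R 4.3.3 (mean-variance trend, two-sided, Benjamini-Hochberg over all tested genes, threshold 0.05). They were also run on simulated data, in which the changed genes were placed at moderate to high levels. Changes in genes of low level were thus not covered by that run. Replicate numbers came from the titles. Deviations from the group means correlated between same-numbered libraries at 0.747, 0.364 and 0.216, all above 0.1, so block values are given. However, control replicate 3 with fibril replicate 2 gave 0.5, and control replicate 2 with fibril replicate 3 gave 0.433. Both exceeded the same-numbered values of replicates 2 and 3, so the pairing of those replicates rests on the titles alone. Block values and comparisons by replicate number carry that limit. The relative worth of a fragment was read from genes below 1 FPKM; fibril replicate 1 was placed through control replicate 1. Promoter windows are RefSeq's (GRCr8). The genes and lists were chosen with earlier results of these data known, so no test was made over a list. Named in full were genes whose groups did not overlap, the 4 largest differences each way, the 4 highest by mean and the untested gene; other values are given more briefly.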

Additional observations from a re-analysis of the deposited data

How the results depend on the processing

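Across 15 alternatives 0 of the lysosomal genes that could be tested passed in either direction, and the lowest adjusted p of any of them was 0.349 (limma). Of all genes, 12 were called higher with the replicate block and 1 with the block scaled without mitochondrial genes, and 0 to 1 when 1 library was left out (1 without control replicate 1); the block changed no call of a lysosomal gene. The number above 0 was 13 under that scaling, with or without the block, and 15 (without fibril replicate 3) to 27 (without fibril replicate 1) with 1 library left out; the median was -0.053 under the scaling, and -0.0059 to 0.37. With that scaling, added after seeing the data for the overlap, 1 gene lay wholly above the controls and 1 wholly below. The signs of 14 genes held in every alternative in which they were tested. Under that scaling, with and without the block, differences turned for Asah1 (-0.14), Atp6ap1 (-0.060), Atp6v1h (-0.053), Ctsb (-0.066), Ctsl (-0.042), Gaa (-0.29), Lamp2 (-0.27), Lipa (-0.22), Mcoln1 (-0.0021), Npc1 (-0.15) and Psap (-0.18). Under quantile normalization they turned for Atp6ap1 (-0.0010), Ctsb (-0.086), Ctsf (0.013), Gaa (-0.039), Lamp2 (-0.18), Naglu (0.071) and Psap (-0.23). With replicates 2 and 3 only (a filter of 1 FPKM in 2 libraries) they turned for Gaa (-0.26), Lamp2 (-0.028), Naglu (0.097) and Npc1 (-0.22). A pseudocount of 0.1 turned Ctsf (0.018) and a pseudocount of 5 turned Gaa (-0.025). Leaving out 1 library gave ranges across 0 for Atp6ap1 (-0.064 to 0.44), Ctsb (-0.015 to 0.38), Ctsd (-0.32 to 1.15), Ctsf (-0.57 to 0.36), Gaa (-0.58 to 0.54), Gusb (-0.63 to 0.064), Hexa (-0.89 to 0.26), Lamp2 (-0.24 to 0.37), Lipa (-0.18 to 0.17), Mcoln1 (-0.26 to 0.94), Naglu (-0.44 to 0.26), Npc1 (-0.082 to 0.47), Psap (-0.44 to 0.65) and Tpp1 (-0.34 to 0.079). The cause of these turns was not tested. Without control replicate 2, fibril replicate 2 or fibril replicate 3, Ctsz did not pass the filter on low values, and with a filter of 5 FPKM Tfeb, Lipa and Naglu did not. Low values of replicate 1 are the least precise, and no interval can be given without fragment numbers.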
